A study of Mus musculus with 4 samples.

Results

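Transcripts of calcineurin, the NFAT factors and the calcium entry channel were followed in naive CD4+ T cells and in the iTreg cells cultured from them, in WT and Nr4a-TKO. The 10 genes were taken by their symbol in the array files: Nfatc1, Nfatc2, Nfatc3, Nfat5, Rcan1, Ppp3ca, Ppp3cb, Ppp3cc, Orai1 and Stim1. They are 10 of 27192 named genes on the array and are read by 29 of its 56605 probes. Of these 29 probes, 27 were well above local background on the 4 arrays, 1 probe of Nfat5 was dim on 1 array, and 1 probe of Stim1 was dim on each array and gives no difference.

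The data are 4 single-colour Agilent arrays, 1 for each genotype (WT, Nr4a-TKO) at each stage (naive T, iTreg 3 h). Nr4a-TKO cells carry floxed alleles of Nr4a1 and Nr4a2 and a knockout allele of Nr4a3, with a human CD2 and CD52 reporter in the Foxp3 locus, on a C57BL/6J background. The Cre line is not given in the sources used here. Naive cells were sorted from spleen and lymph nodes of bone marrow chimeras in irradiated Rag2-/- hosts as CD4+, CD62L-high, CD44low, CD25low and Foxp3-. The hosts of the Nr4a-TKO cells had received WT and Nr4a-TKO marrow together, those of the WT cells marrow of WT alone, so genotype and type of chimera cannot be told apart. The 3 h cells were cultured for 3 h on plate-bound anti-CD3 at 2 µg/ml and anti-CD28 at 0.5 µg/ml, with blocking antibodies to IFN-γ and IL-4, IL-2 at 10 ng/ml and TGF-β1 at 0.2 or 0.5 ng/ml. Mice were 6 to 8 weeks old and of both sexes, and the chimeras were used 6 weeks after transplantation. Which of these TGF-β1 doses was used and the number of animals behind an array are not given in the sources used here.

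In T cells, engagement of the receptor empties the calcium store of the endoplasmic reticulum. Stim1 senses the loss in the store and opens Orai1, the pore of the calcium channel in the plasma membrane. The calcium that enters activates calcineurin, a phosphatase of a catalytic and a regulatory subunit, which removes phosphates from Nfatc1, Nfatc2 and Nfatc3 and lets them enter the nucleus. Rcan1 binds and inhibits calcineurin and is itself a known NFAT target. Nfat5 shares the DNA-binding domain of the family, does not depend on calcineurin to enter the nucleus and is known for the response to osmotic stress. Whether its transcript level depends on calcineurin was not tested here.

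A level below is the log2 of the intensity after background correction and quantile normalization across the 4 arrays, and a change is a difference of 2 such levels. No condition had a replicate, so no difference was tested. Judged from repeated spots of the same probe, the difference of 2 arrays has an SD of 0.175 on the log2 scale, which covers the array alone. A gene was represented by its brightest probe, and 2-fold was taken as the threshold. A difference from a probe dim on 1 of the 2 arrays is called a bound and is approximate. Levels of different probes are not comparable with each other. In bulk RNA, fewer cells with a transcript and less of it per cell cannot be told apart.

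The 6 T cell markers were well above background on each array, and Il7r and S1pr1 were lower at 3 h in both genotypes. The targeted genes did not follow the labels. Nr4a1 was 1.33 higher on the Nr4a-TKO naive array than on the WT one, and Nr4a2 was 1.38 higher on the Nr4a-TKO array at 3 h. Of the 3 probes of Nr4a3, those at 1.46 and 1.85 below WT at 3 h went with the label and the brightest, at 0.19 above WT, did not. Directions between genotypes therefore rest on the labels, and "Nr4a-TKO" below means the array so labelled. Each of 6 genes of B cells and MHC class II was well above background on the 4 arrays. Their summed level was 9.85 on the WT naive array and 10.46 on the Nr4a-TKO naive array, and 9.49 and 10.53 at 3 h. The genes did not go together. In naive T their difference between genotypes ran from -0.56 (Cd79b) to 1.61 (H2-Aa), and at 3 h from 0.07 (Ms4a1) to 1.38 (H2-Ab1). Foxp3 was lower on the Nr4a-TKO arrays, by 1.31 in naive T and by 1.35 at 3 h. The part of these differences in the results below was not tested.

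To show what the arrays read, probes of 4 of the genes that hold a reading frame without a stop codon are given 5′ to 3′ with their positions on mm9, as the array files hold them. Each is 60 bases long, and no base is singled out by capitals.

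Orai1, A_52_P405994, plus strand, chr5:123479321-123479380: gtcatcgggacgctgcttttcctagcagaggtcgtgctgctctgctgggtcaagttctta
Nfatc2, A_52_P628171, minus strand, chr2:168361757-168361816: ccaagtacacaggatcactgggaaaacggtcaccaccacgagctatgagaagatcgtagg
Nfat5, A_55_P2372248, plus strand, chr8:109882604-109882663: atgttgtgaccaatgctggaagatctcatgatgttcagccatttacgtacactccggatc
Nfat5, A_51_P135309, plus strand, chr8:109893395-109894320: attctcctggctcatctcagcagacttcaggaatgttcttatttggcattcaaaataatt
Ppp3cc, A_51_P245412, minus strand, chr14:70624827-70634977: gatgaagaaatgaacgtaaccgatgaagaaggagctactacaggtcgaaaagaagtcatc

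The second Nfat5 probe spans 926 genomic bases and the Ppp3cc probe 10151, so both cross introns and read spliced RNA. The Nfatc2, Nfat5 and Ppp3cc probes gave the same direction at 3 h as the other probes of their gene, as described with each gene. Orai1 has no other probe.

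At 3 h in WT, 3 of the 10 genes were more than 2-fold higher than in naive T and 4 were more than 2-fold lower. The higher genes were Nfatc1, Rcan1 and Orai1, and the lower ones Nfatc2, Nfatc3, Ppp3cc and Stim1. Over all 19606 genes measured in this comparison, 8.54% passed 2-fold upward and 8.98% downward. In Nr4a-TKO, 1 of the 10 genes, Nfat5, was more than 2-fold higher and 3 were more than 2-fold lower, namely Nfatc3, Ppp3cc and Stim1. The background there was 7.97% higher and 8.42% lower among 20010 genes. The median change of the 10 genes was -0.65 in WT and -0.59 in Nr4a-TKO, beside -0.06 and -0.02 over all genes. By probe, 27 of the 28 measured probes changed in the same direction in both genotypes, and 8 passed 2-fold in both. The shares of all probes that did so in both genotypes were not computed. Taken by genotype, 6 of the 28 probes were more than 2-fold higher and 10 lower in WT, and 5 and 6 in Nr4a-TKO. Over all probes measured, 9.23% passed 2-fold upward and 8.47% downward in WT, and 8.19% and 7.92% in Nr4a-TKO. The 10 genes were chosen with earlier results of these data known, so these counts are descriptions and not a test against all genes.

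**Figure D1:**
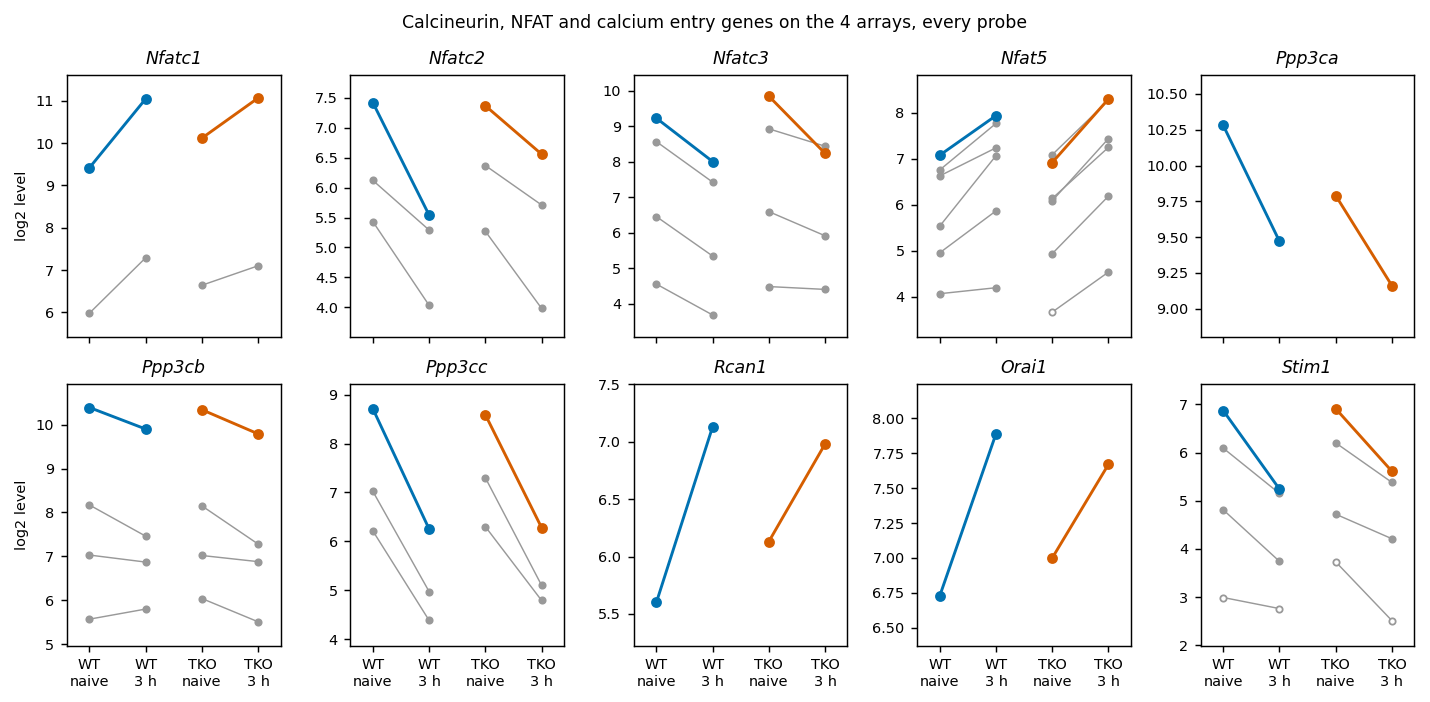
Level (log2 normalized intensity, vertical axis, scaled separately for each gene) of every probe of the 10 genes on the 4 arrays, with naive T and iTreg 3 h of WT, then of Nr4a-TKO (TKO), along the horizontal axis. Coloured lines are the brightest probe of the gene (blue in WT, orange in TKO), grey lines the other probes, and open points were not well above background. Nfatc1, Nfat5, Rcan1 and Orai1 slope upward in both genotypes and Nfatc2, Nfatc3, Ppp3ca, Ppp3cc and Stim1 slope downward.

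Nfatc1, the NFAT factor that T cells induce on activation, was higher at 3 h. Its brightest probe, designed on the transcript with the early 3′ end, had levels of 9.42 in WT naive T, 10.12 in Nr4a-TKO naive T, 11.05 in WT iTreg 3 h and 11.07 in Nr4a-TKO iTreg 3 h. Both 3 h arrays stood above both naive arrays, and the 3 h arrays differed from each other by 0.02, less than the SD of repeated spots. The change was 1.64 in WT (3.11-fold) and 0.95 in Nr4a-TKO (1.93-fold).

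The other Nfatc1 probe, on the longer transcript, lies 41.8 kb further downstream. Its levels were 5.98 and 6.64 in WT and Nr4a-TKO naive T, and 7.29 and 7.10 at 3 h. The order of the 4 arrays was the same as for the brightest probe except for the 3 h pair, where WT was 0.19 above Nr4a-TKO. The change was 1.31 in WT and 0.46 in Nr4a-TKO. Both probes were higher on the Nr4a-TKO naive array than on the WT one, by 0.70 and 0.66, and both therefore changed less in Nr4a-TKO, by 0.69 and 0.85.

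Nfatc2, present in resting T cells and the factor known for both activation and anergy programmes, was lower at 3 h. The levels of its brightest probe were 7.42 in WT naive T, 7.37 in Nr4a-TKO naive T, 5.54 in WT iTreg 3 h and 6.56 in Nr4a-TKO iTreg 3 h. The naive arrays were within 0.05 of each other, while the 3 h arrays were 1.02 apart with WT at the bottom. The change was -1.88 in WT and -0.81 in Nr4a-TKO. The probe shown above (A_52_P628171) went from 6.12 to 5.29 in WT and from 6.37 to 5.71 in Nr4a-TKO, and the dimmest probe from 5.43 to 4.03 and from 5.27 to 3.98. All 3 probes were lower at 3 h in both genotypes, by 0.82 to 1.88 in WT and by 0.67 to 1.29 in Nr4a-TKO. They disagreed on the genotypes at 3 h, with differences of 1.02, 0.41 and -0.04.

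Nfatc3, the third calcineurin-dependent factor of resting T cells, was lower at 3 h in its 4 probes, which spread over 35.9 kb. The brightest had levels of 9.23 and 9.85 in WT and Nr4a-TKO naive T and of 8.01 and 8.24 at 3 h, a change of -1.22 in WT and -1.62 in Nr4a-TKO. The next probe, on the RefSeq transcript, had 8.57 and 8.93 in naive T and 7.43 and 8.44 at 3 h, a change of -1.14 in WT and -0.48 in Nr4a-TKO. On both probes the naive arrays stood above the WT 3 h array. The Nr4a-TKO 3 h array lay within 0.23 of WT on the brightest probe and 1.01 above it on the next. The remaining 2 probes changed by -1.11 and -0.87 in WT and by -0.68 and -0.07 in Nr4a-TKO. With the mean over all probes the change of Nfatc3 in Nr4a-TKO was -0.71, under 2-fold.

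Nfat5 was higher at 3 h in its 6 probes, which spread over 51.3 kb. The brightest, shown above as A_55_P2372248, had 7.08 in WT naive T, 6.92 in Nr4a-TKO naive T, 7.94 in WT iTreg 3 h and 8.30 in Nr4a-TKO iTreg 3 h. Both 3 h arrays stood above both naive arrays, and the naive arrays differed by 0.17. The change was 0.86 in WT (1.81-fold) and 1.38 in Nr4a-TKO (2.61-fold). The probe across the exon junction (A_51_P135309) had 6.76 and 7.09 in naive T and 7.77 and 8.27 at 3 h, a change of 1.01 and 1.18. Over the 6 probes the change ran from 0.13 to 1.54 in WT, with 2 past 2-fold, and from 0.87 to 1.38 in Nr4a-TKO, with 5 past 2-fold. The value of 0.87 is approximate, from the probe that was dim on the Nr4a-TKO naive array. At 3 h the 6 probes were higher on the Nr4a-TKO array, by 0.17 to 0.50.

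**Figure D2:**
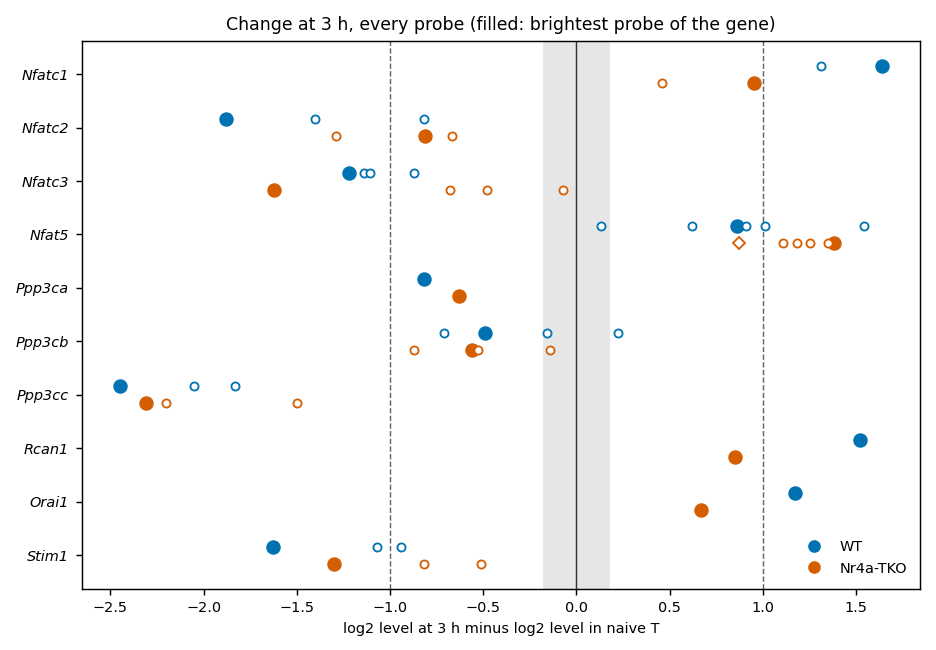
Change at 3 h (horizontal axis, log2 level in iTreg 3 h minus log2 level in naive T) of every probe of the 10 genes in WT (blue) and Nr4a-TKO (orange). Large filled points are the brightest probe of a gene, small open points the others and the diamond a bound; dashed lines mark 2-fold and the grey band is 1 SD of repeated spots (0.175). Ppp3cc lies furthest to the left in both genotypes, and the points of Nfatc1, Rcan1 and Orai1 lie further right in WT than in Nr4a-TKO.

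Of the 3 genes of the calcineurin catalytic subunit, Ppp3cc had the largest change in both genotypes. Ppp3cc encodes the gamma isoform. Its brightest probe had levels of 8.71 in WT naive T, 8.59 in Nr4a-TKO naive T, 6.25 in WT iTreg 3 h and 6.28 in Nr4a-TKO iTreg 3 h. The naive arrays were within 0.12 of each other, the 3 h arrays within 0.02, and 2.31 or more lay between the pairs. The change was -2.45 in WT (5.47-fold lower) and -2.31 in Nr4a-TKO (4.96-fold lower). The probe across introns (A_51_P245412) changed by -1.83 and -1.5 and the last probe by -2.05 and -2.20, so the 3 probes were more than 2-fold lower in each genotype.

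Ppp3ca, the alpha isoform, had 10.28 in WT naive T, 9.79 in Nr4a-TKO naive T, 9.47 in WT iTreg 3 h and 9.16 in Nr4a-TKO iTreg 3 h. Its single probe was 0.82 lower at 3 h in WT and 0.63 lower in Nr4a-TKO. It was also lower in Nr4a-TKO than in WT at both stages, by 0.50 and 0.31. Ppp3cb, the beta isoform, had 10.39 and 10.34 in naive T and 9.90 and 9.79 at 3 h on its brightest probe. The change was -0.49 in WT and -0.56 in Nr4a-TKO, and neither pair of arrays of the same stage was further apart than 0.12. Over its 4 probes the change ran from -0.71 to 0.22 in WT and from -0.87 to -0.14 in Nr4a-TKO. The alpha and beta isoforms thus stayed within 2-fold on each of their 5 probes. The regulatory subunit Ppp3r1 was within 0.13 of naive T in both genotypes, and the probe of Ppp3r2 was not well above background.

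Rcan1, the inhibitor, has a single probe in the shared last part of its transcripts. Its levels were 5.60 in WT naive T, 6.13 in Nr4a-TKO naive T, 7.13 in WT iTreg 3 h and 6.98 in Nr4a-TKO iTreg 3 h. Both 3 h arrays stood above both naive arrays, with 0.14 between them, and the Nr4a-TKO naive array was 0.53 above the WT one. The change was 1.52 in WT (2.88-fold) and 0.85 in Nr4a-TKO (1.80-fold). With a background offset of 50 the change in WT was 0.95, under 2-fold.

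RefSeq gives Rcan1 a pair of transcript starts that lie 66.1 kb apart on the minus strand of chromosome 16 (GRCm38.p6). The probe reads RNA from either start, so the arrays do not say which was used. The downstream start is the one known to respond to calcineurin. The 250 bases before each start are given in the direction of transcription, with the NFAT core GGAAA and its reverse complement TTTCC in capitals.

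Rcan1, upstream start, chr16:92466170-92466419: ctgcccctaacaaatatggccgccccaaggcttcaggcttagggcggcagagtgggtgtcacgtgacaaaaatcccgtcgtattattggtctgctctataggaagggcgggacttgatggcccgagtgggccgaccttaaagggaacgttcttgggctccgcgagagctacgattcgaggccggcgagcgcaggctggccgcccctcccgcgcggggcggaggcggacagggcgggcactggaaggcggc
Rcan1, downstream start, chr16:92400079-92400328: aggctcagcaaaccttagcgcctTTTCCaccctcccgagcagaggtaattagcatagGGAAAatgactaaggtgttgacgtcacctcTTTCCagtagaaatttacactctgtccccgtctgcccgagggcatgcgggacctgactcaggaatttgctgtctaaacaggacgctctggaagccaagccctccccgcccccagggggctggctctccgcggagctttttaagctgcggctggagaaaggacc

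The window of the downstream start held 3 matches, which begin 227, 193 and 163 bases before it, and that of the upstream start held 0. Among 32851 promoter windows of the same length in the RefSeq table, 55.6% held at least 1 match on either strand and 6.39% held 3 or more. For the other members the windows of Nfatc2 held 3 and 1 matches, those of Nfatc3 1 and 0, that of Nfat5 2, that of Ppp3cb 3, and those of Orai1 and Stim1 0. A match says only that these letters stand there, and binding was not measured on these arrays.

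Orai1 and Stim1 changed in opposite directions. Orai1, the pore, had 6.73 in WT naive T, 7.0 in Nr4a-TKO naive T, 7.89 in WT iTreg 3 h and 7.67 in Nr4a-TKO iTreg 3 h on the single probe printed above. Both 3 h arrays stood above both naive arrays. The change was 1.17 in WT (2.24-fold) and 0.67 in Nr4a-TKO (1.59-fold), and 0.88 in WT with a background offset of 50, under 2-fold.

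Stim1, the sensor in the store, had 6.87 in WT naive T, 6.91 in Nr4a-TKO naive T, 5.24 in WT iTreg 3 h and 5.61 in Nr4a-TKO iTreg 3 h on its brightest probe. The naive arrays were within 0.04 of each other and stood above both 3 h arrays. The change was -1.63 in WT (3.09-fold lower) and -1.30 in Nr4a-TKO (2.47-fold lower). With a background offset of 50 it was -0.93 and -0.79, under 2-fold. The other measured probes, 1 of them 169 kb upstream, changed by -0.94 and -1.07 in WT and by -0.82 and -0.51 in Nr4a-TKO.

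Between the genotypes none of the 10 genes was more than 2-fold apart in naive T, where 1.91% of all genes were higher in Nr4a-TKO and 1.63% lower, or 3.54% in all. At 3 h 1 of the 10, Nfatc2, was more than 2-fold higher in Nr4a-TKO, beside 1.76% of all genes higher and 1.93% lower, or 3.69% apart in either direction. This value, 1.02, lies at the threshold. It was 0.58 with a background offset of 50, 0.78 without background correction and 0.46 as the mean over the 3 probes. Of the 4 genes that were higher at 3 h, Nfatc1, Rcan1 and Orai1 were already higher on the Nr4a-TKO naive array, by 0.70, 0.53 and 0.27, and Nfat5 was not, at -0.17. At 3 h Nfatc1, Rcan1 and Orai1 differed by 0.02, -0.14 and -0.23. Their change was thus smaller in Nr4a-TKO by 0.69, 0.67 and 0.50, while the median of this difference was 0.04 over the 10 genes and 0.01 over all genes. Each of these changes uses the same naive array as the genotype comparison beside it, so the smaller change and the higher naive level are not separate observations.

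**Figure D3:**
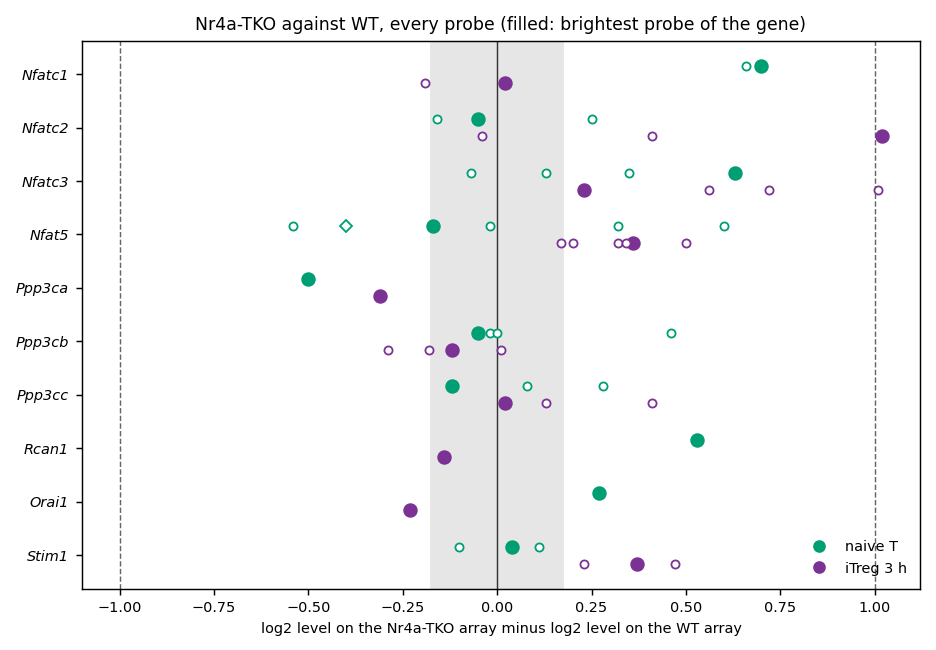
Difference between genotypes (horizontal axis, log2 level on the Nr4a-TKO array minus log2 level on the WT array) of every probe of the 10 genes in naive T (green) and in iTreg 3 h (purple). Large filled points are the brightest probe of a gene, small open points the others and the diamond a bound; dashed lines mark 2-fold and the grey band is 1 SD of repeated spots (0.175). The naive points of Nfatc1, Rcan1 and Orai1 lie to the right of their 3 h points, and the brightest Nfatc2 probe at 3 h lies at the 2-fold line.

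On the brightest probe, the higher 2 of the 4 arrays were of the same stage for the 10 genes. The share of all genes with such an order was not computed. On the dimmest Ppp3cb probe the higher 2 arrays were Nr4a-TKO naive T (6.04) and WT iTreg 3 h (5.8). By brightest probe, the genotypes were closer than the SD of repeated spots in naive T for Nfatc2, Nfat5, Ppp3cb, Ppp3cc and Stim1. At 3 h they were so for Nfatc1, Ppp3cb, Ppp3cc and Rcan1. Of 15635 other genes well above background on the 4 arrays, those closest to Ppp3cc in the shape of the 4 centred levels were Acap1, Cnn2 and Pglyrp1, at distances of 0.0800, 0.0946 and 0.105 on the log2 scale. Those closest to the brightest Nfatc2 probe were Slfn10-ps, Ly6a and Cnpy4, at 0.0876, 0.110 and 0.161. Likeness over 4 arrays is a description, and many genes change by similar amounts.

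The genes around these 10 were described by 6 lists of 59 genes. The lists were chosen with earlier results of these data known. Their shares, here and for each list below, are therefore descriptions and not a test against all genes. In WT 55 of the 59 could be measured, and at 3 h 12 were more than 2-fold higher and 6 lower. Together that is 32.7%, beside 17.5% of all genes. In Nr4a-TKO 11 were higher and 8 lower of 56, which is 33.9% beside 16.4% of all genes.

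Of the 5 measured genes of store-operated entry, 1 passed 2-fold in each genotype. That is 20.0%, near the share of all genes, 17.5% in WT and 16.4% in Nr4a-TKO. Saraf, which closes the channel again after the store is refilled, was 2.22 lower in WT and 1.73 lower in Nr4a-TKO. Orai2, the sister pore, changed by -0.92 and -0.69, Orai3 by -0.50 and -0.41, and Stim2, the sensor of basal calcium, by 0.29 and 0.10. Orai1 was thus the only measured Orai gene with a higher level at 3 h, in WT and in Nr4a-TKO.

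Of the 14 genes of calcium release and clearance, 2 were more than 2-fold higher in WT and 4 lower, and in Nr4a-TKO 1 was higher and 5 lower. That is 42.9% in each genotype, beside 17.5% of all genes in WT and 16.4% in Nr4a-TKO. The pumps that refill the store went opposite ways. Atp2a3, the pump typical of blood cells, went from 11.42 to 8.83 in WT and from 11.47 to 9.02 in Nr4a-TKO, a change of -2.59 and -2.45. Atp2a2, the widely expressed pump, went from 7.34 to 8.72 and from 7.26 to 8.80, a change of 1.38 and 1.55.

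The IP3 receptors, through which the store empties, were lower, with Itpr2 at -1.81 in WT and -1.42 in Nr4a-TKO, Itpr3 at -1.42 and -1.02, and Itpr1 at -0.72 and -0.64. Plcg1, the phospholipase that makes IP3, changed by -1.05 and -1.20. The change of Itpr3 in Nr4a-TKO was -0.78 with a background offset of 50, and that of Plcg1 in WT -0.85 with the processed intensity scaled to the 75th percentile, both under 2-fold. Kcna3, the voltage-gated potassium channel of T cells, went from 8.20 to 9.40 in WT and from 8.90 to 9.22 in Nr4a-TKO. Its pattern was that of Nfatc1, with a change of 1.20 in WT and 0.32 in Nr4a-TKO and a naive level 0.71 higher in Nr4a-TKO. Kcnn4, the calcium-activated potassium channel, changed on its brightest probe by -1.0 and -1.03, at the threshold. With the processed intensity scaled to the 75th percentile this was -0.80 and -0.87. The other Kcnn4 probes were past 2-fold in both genotypes, at -1.54 and -1.55 in WT and -1.58 and -1.59 in Nr4a-TKO.

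Atp2b4, a calcium pump of the plasma membrane, stood apart by genotype and not by stage. It had 5.26 in WT naive T and 5.38 in WT iTreg 3 h, against 6.71 and 7.16 in Nr4a-TKO. The Nr4a-TKO arrays were 1.45 and 1.78 higher, which is 2.74-fold and 3.43-fold. Its second probe, dim on the WT naive array, was 0.78 higher in Nr4a-TKO naive T and 0.46 higher at 3 h, under 2-fold. On the brightest probe it was the only gene of the 5 lists other than the NFAT target genes that passed 2-fold between genotypes, and in naive T it was 0.81 under the alternative that moved it most.

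Of the 10 measured calcineurin partners, only Akap5, an anchoring protein of calcineurin, passed 2-fold, and in WT alone, at 1.20 in WT and 0.91 in Nr4a-TKO. That is 10.0% in WT, beside 17.5% of all genes. The second Akap5 probe changed by 0.32 and -0.11, and with a background offset of 50 the change in WT was 0.47, under 2-fold. Of the 11 NFAT kinases and partners, 1 was more than 2-fold higher and 1 lower in each genotype. That is 18.2%, near the share of all genes, 17.5% in WT and 16.4% in Nr4a-TKO. Gsk3b, a kinase that returns NFAT to the cytoplasm, was 1.41 lower in WT and 1.13 lower in Nr4a-TKO. As the mean over its 4 probes, which ran from -1.41 to -0.14 in WT, the change was -0.93 and -0.85, under 2-fold. Homer3, a scaffold that competes with calcineurin for NFAT, was 1.05 and 1.11 higher on its brightest probe. Its second probe changed by -0.21 and -0.02, and the mean over both was 0.42 and 0.54, under 2-fold.

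Among the known NFAT target genes, 6 of the 10 measured in WT were more than 2-fold higher at 3 h and 0 were lower. In Nr4a-TKO 7 of 11 were higher and 1 was lower. Over all genes 8.54% were higher and 8.98% lower in WT, and 7.97% and 8.42% in Nr4a-TKO. Il2 and Pdcd1 in WT and Ifng in Nr4a-TKO were dim in naive T and were counted through the 3 h array alone. Irf4, a factor of effector T cells, went from 6.16 to 12.51 in WT and from 7.41 to 12.62 in Nr4a-TKO, a change of 6.35 and 5.21. Tnf, a cytokine, changed by 2.86 and 3.01, Egr2 by 2.82 and 2.45 and Egr3 by 1.70 and 1.02. With a background offset of 50 the change of Egr3 in Nr4a-TKO was 0.82, under 2-fold. Il2, the T cell growth factor, was 10.3-fold higher at 3 h in WT and 18.4-fold higher in Nr4a-TKO. Pdcd1, which encodes the inhibitory receptor PD-1, was 8.31-fold higher in WT and 7.11-fold higher in Nr4a-TKO. Both were dim on the WT naive array, so their folds in WT are approximate. The smallest change in WT under an alternative was 1.56 for Il2 and 1.46 for Pdcd1. Ctla4, another inhibitory receptor, was 1.27 lower at 3 h in Nr4a-TKO and 0.51 lower in WT. With a background offset of 50 it changed by -0.87 in Nr4a-TKO.

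Between genotypes, Irf4 was 1.25 higher in Nr4a-TKO naive T and Pdcd1 2.86-fold higher, the latter approximate since it was dim on the WT naive array. With a background offset of 50 these differences were 0.86 and 0.53, under 2-fold. At 3 h Il2 was 2.29-fold higher in Nr4a-TKO and Pdcd1 2.45-fold higher, and Irf4 differed by 0.11. Ifng and Il3 were well above background at 3 h on the Nr4a-TKO array alone of the 2. Their differences, 2.22-fold and 2.42-fold higher, are bounds and approximate. These are 4 of 11 targets past 2-fold at 3 h, where 3.69% of all genes were. Ifng and Il3 entered this comparison only through the Nr4a-TKO array, where they are high, so their part of the count depends on the filter. The second Il3 probe was dim on each array. With a background offset of 50, Ifng differed by 0.28, Il3 by 0.32 and Il2 by 0.96, under 2-fold, and Pdcd1 by 1.03. On their brightest probe, Nfatc1 and Rcan1 differed between genotypes at 3 h by less than the SD of repeated spots. Nfatc2, Nfatc3 and Nfat5 were higher in Nr4a-TKO there, by 1.02, 0.23 and 0.36. Over the 15 measured probes of the NFAT factors the difference ran from -0.19 to 1.02.

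Of 5 known targets of Nfat5, 2 were more than 2-fold higher in each genotype and 0 lower. That is 40.0%, beside 17.5% of all genes in WT and 16.4% in Nr4a-TKO. Slc5a3, the myo-inositol transporter, was 2.68 higher in WT and 1.91 higher in Nr4a-TKO. Hspa4l, a chaperone induced by osmotic stress, was 2.48 and 2.05 higher on its brightest probe. The other Hspa4l probes changed by 2.67, 1.95 and 0.73 in WT and by 1.56, 0.36 and 0.50 in Nr4a-TKO. The value of 1.95 is approximate, from a probe dim on the WT naive array. The smallest change of Hspa4l in Nr4a-TKO under an alternative was 1.12. Akr1b3, the aldose reductase, changed by -0.12 and 0.05 and Slc6a6, the taurine transporter, by 0.50 and 0.80. Slc6a12, the betaine transporter, was dim on 2 of the 4 arrays and gives bounds only.

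**Figure D4:**
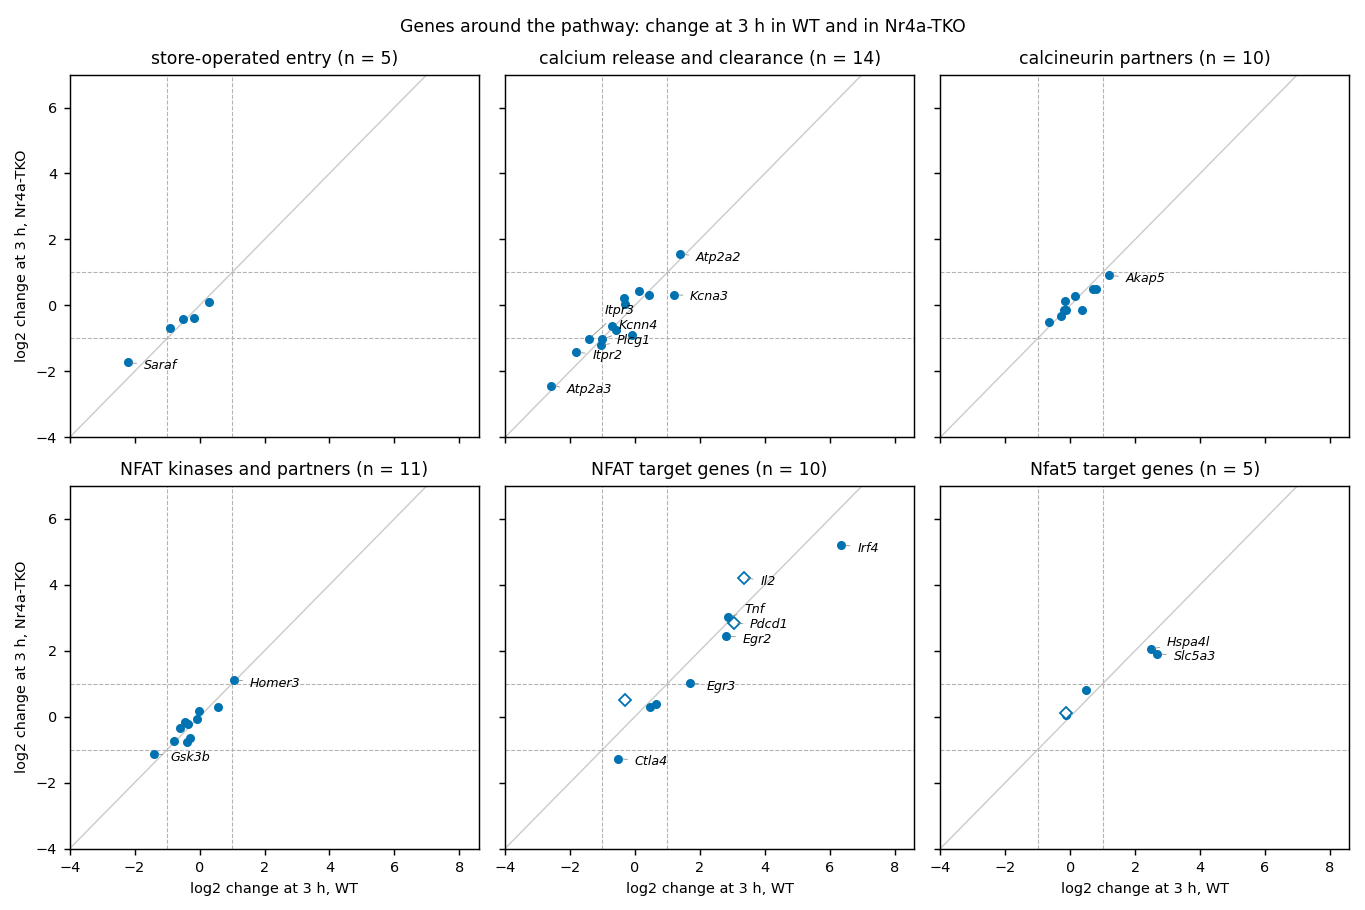
Change at 3 h (log2 level in iTreg 3 h minus naive T) in WT (horizontal axis) against Nr4a-TKO (vertical axis) for the measured genes of 6 lists around calcineurin and NFAT, 1 panel a list. Dashed lines mark 2-fold, the diagonal marks equal change, open diamonds hold a bound, and genes past 2-fold in either genotype are named. NFAT target genes reach 6.35 in WT (Irf4), Atp2a3 and Saraf lie lowest in their panels, and the calcineurin partners lie near 0.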

How the data were processed

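For each array the authors deposited the output of Agilent Feature Extraction 11.5.1.1, which holds per spot a mean foreground intensity, a local background intensity, a processed intensity and flags. Per the file headers, mm9 is the build of the probe positions. A further deposited table is on the log2 scale, which matches log2 of the processed intensity less the 75th percentile of each array, while their methods name RMA.

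The main values follow RMA: normexp background correction (offset 0) and quantile normalization in limma 3.58.1 (R 4.3.3), then log2, averaged over the spots that share a probe. Controls and between 115 and 160 outlier spots per array were left out. Of the probes, 64.9% to 67.6% per array were well above background and no spot was saturated. Later steps used Python 3.11.15, pandas 2.3.3, numpy 2.4.6 and matplotlib 3.10.9. Genes were named by their symbol in the files, updated by transcript or synonym through the RefSeq table of GRCm38.p6, and 10293 of 56605 probes stayed unnamed. Where a probe was dim on 1 of 2 arrays and lay under the lowest value of a probe well above background there, it was raised to that value. These lowest values were between 3.07 and 3.45. A dim reading above them was kept as it was. Differences past 2-fold were counted, with no test, since each group is 1 array. The 4 arrays share 1 slide and 1 scan. The counting was tested on simulated data. Repeat precision rests on probes spotted 5 times or more, 284 to 286 on each array.

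Named are the 10 genes with every probe, genes of the 6 lists past 2-fold in any comparison and, in lists where few passed, others for contrast chosen after their values were seen, the targeted genes, and the 3 genes nearest in pattern to the 2 members with the largest change in WT. The members and lists were chosen with earlier results of these data known. Alternatives were the processed intensity scaled to the 75th percentile, an offset of 50, no background correction, the deposited table, the mean over probes, a stricter and no filter on dim probes, and thresholds of 1.5-fold and 3-fold. Promoter sequences are from RefSeq, with 7 of the 10 genes matched. T cell, naive T, CD8 T, Treg, B cell, myeloid, erythroid and NK marker lists were used as a check of the sorted cells. Some genes of these lists are not reported here.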

Additional observations from a re-analysis of the deposited data

Results flagged for a closer look

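One probe of Ppp3cb, the dimmest of its 4, changed in opposite directions in the genotypes, at 0.22 in WT and -0.53 in Nr4a-TKO on the log2 scale. The other 3 Ppp3cb probes were lower at 3 h in both genotypes. Il3 was at -0.32 in WT, a bound since it was dim on the WT array at 3 h, and at 0.49 in Nr4a-TKO. Each value rests on 1 array per condition, and the difference between the genotypes was not tested.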

How the results depend on the processing

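No paired analysis was possible because each group is 1 array and the labels carry no replicate numbers. Of 86 recomputed counts and medians, 66 stayed within 1.5 times the main count or within the SD of repeated spots. With the processed intensity scaled to the 75th percentile, and with the deposited table, the median change of the 10 genes was -0.43 in WT and -0.39 in Nr4a-TKO, and 2 genes were more than 2-fold higher at 3 h in Nr4a-TKO. With an offset of 50, 1 gene was more than 2-fold higher in WT, 12 pathway genes changed in Nr4a-TKO, and 0 genes differed between genotypes at 3 h. That last count was also 0 without background correction, as the mean over probes and at 3-fold. The mean over probes left 1 gene lower in Nr4a-TKO. At 1.5-fold, 4 genes were higher and 5 lower in Nr4a-TKO and 2 differed in naive T. At 3-fold, 1 gene was higher in WT and 0 in Nr4a-TKO, and 11 pathway genes passed in WT and 9 in Nr4a-TKO. The threshold alone explains the counts at 1.5-fold and 3-fold, and the cause of the other shifts was not tested. Of 948 recomputed differences of member genes and probes, 12 changed sign, all of them at most 0.13 in size in the main values, and 182 moved by more than the SD of repeated spots. Dim probes limit the reading: an offset of 50 shrinks them most, and the largest shift, 1.02, was that of the dimmest Ppp3cc probe in WT.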

Other observations

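Markers outside the pathway gave these values. Among the 5 myeloid genes, the change at 3 h ran from -0.29 to 0.46 in WT, and the median difference between genotypes was 0.12 in naive T. Cd8a and Cd8b1 were lower on the Nr4a-TKO arrays by 0.10 and 0.16 in naive T. Of the 4 erythroid genes Hbb-b1 was not well above background on any array, and of the 3 NK genes Ncr1 was not. The 4 Treg genes did not go together. In naive T the difference between genotypes was -1.31 for Foxp3, -1.37 for Ikzf2, 0.83 for Ctla4 and -0.07 for Il2ra. At 3 h it was -1.35, 0.16, 0.06 and 0.05 in the same order, and -1.22 and -1.67 on the other Ikzf2 probes. The second Il2ra probe, dim on the Nr4a-TKO naive array, differed by -0.43 in naive T. Of the naive T genes, S1pr1 was lower at 3 h by 4.07 (WT) and 3.73 (Nr4a-TKO).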
